A study of Mus musculus with 9 samples.

Results

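Solute carriers are the membrane proteins that move amino acids, sugars, ions, vitamins, nucleosides, metals and lipids across the plasma membrane and the membranes of organelles. The carriers described here were 176 genes of the 55471 in the deposited count table. They were chosen by name and by count. Of 397 genes with a carrier symbol (Slc or Slco followed by a family number, letter and member number), 333 remained after the mitochondrial Slc25a family, antisense transcripts and 11 carriers of iron, zinc, arginine, cystine, glucose and glutamine were set aside, and 176 of these had 10 or more counts in at least 3 of the 9 libraries. The other 157 were under that level, 54 of them with 0 counts in every library. The nearest gene under the limit was Slc6a15, for which the third highest count was 9, and the nearest above it was Slc36a3, for which it was 10. Of the 176 members, 151 reached 10 counts in all 9 libraries, and only Slc35g2 reached it in the LPS libraries alone.

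The Slc families were numbered by sequence, so that a family usually shares a fold and a kind of substrate. Some carriers work as pairs: the light chains Slc7a5, Slc7a6, Slc7a7 and Slc7a8 reach the cell surface bound to the heavy chain Slc3a2, and the monocarboxylate carriers Slc16a1 and Slc16a3 bind basigin. Others sit in the membranes of lysosomes and endosomes and return the products of digestion to the cytosol. In phagocytes such carriers also pass bacterial peptides to sensors of innate immunity.

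The cells were dendritic cells (DCs) grown with GM-CSF (20 ng/mL) from the bone marrow of C57BL/6 mice, female and 8 to 20 weeks old by the study's methods, all of genotype WT. Groups of 3 libraries came from unstimulated DCs, from DCs treated with LPS (100 ng/mL), a component of bacterial outer membranes that is sensed by TLR4, and from DCs treated with IFN-β (1000 U/mL), a type I interferon, both for 6 h. The study set LPS beside IFN-β to compare gene expression in DCs with different metabolism. The labels do not say whether the 3 libraries of a group, lettered A to C, came from separate cultures or animals, so p-values here measure the spread between these libraries, which may be technical.

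Total counts were 33425803 to 43735199 per library. Values are CPM, counts scaled to the library total, here adjusted by TMM, the trimmed mean of M-values, and changes are log2 fold changes ± SE from edgeR's quasi-likelihood test over 16260 genes, called at a Benjamini-Hochberg adjusted p under 0.05. All 176 members were among the genes tested. The DC label was checked against markers. In unstimulated DCs the means were 1375 CPM for Itgax, 2537 CPM for Cd74, 591 CPM for H2-Ab1 and 32.5 CPM for Zbtb46. Flt3 was at 3.06 CPM there, and Cd209a was at a mean of 0.200 CPM or less in every group. Means of the macrophage markers were 97.3 (Fcgr1) to 1101 CPM (Csf1r) in unstimulated DCs. The summed level of 6 DC markers was 4218 to 5046 CPM in unstimulated, 5718 to 6399 CPM in LPS and 4693 to 4959 CPM in IFN-β libraries, with 4 of 6 called higher under LPS and 0 of 6 called in either direction under IFN-β. The 5 macrophage markers summed to 1662 to 2104, 1864 to 2416 and 2365 to 2692 CPM in the same order, with 3 of 5 called higher and 1 lower under LPS and 2 of 5 higher under IFN-β. Of all genes tested, 32.8% were called higher and 35.4% lower under LPS, and 23.6% and 23.3% under IFN-β. What part the marker changes have in the carrier results was not tested. Neutrophil markers summed to at most 23.4 CPM, fibroblast markers to at most 6.55 CPM, and mast cell, B cell, T cell and erythroid markers to at most 0.318 CPM in any library. In bulk RNA, fewer cells of a type and less RNA per cell cannot be told apart.

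The members differed widely in level. Compared per exon length (RPKM), the taurine carrier Slc6a6 was the highest in unstimulated DCs at 108 ± 7.63 RPKM (SD, n = 3). It was followed by the heme carrier Slc48a1 at 70.7 ± 2.95 RPKM and the zinc importer Slc39a1 at 69.2 ± 5.26 RPKM, which lay within each other's spread. Then came the heavy chain Slc3a2 (54.2 ± 1.75 RPKM) and the lysosomal peptide and histidine carrier Slc15a3 (39.6 ± 0.684 RPKM). The scaffold protein Slc9a3r1, which carries the name of its partner and is no carrier, and the copper carrier Slc31a2 came next at 37.5 ± 3.87 and 36.7 ± 3.59 RPKM, in that order. The nucleoside carrier Slc29a3, the neutral amino acid light chain Slc7a8 and the ascorbate carrier Slc23a2 closed the first 10, at 30.2 ± 4.41, 29.6 ± 5.66 and 28.3 ± 0.704 RPKM. From Slc15a3 on, the SD ranges of neighbours in this order overlapped. Under LPS the order was different: Slc15a3 came first at 258 ± 4.63 RPKM, Slc3a2 second at 194 ± 4.67 RPKM and then Slc6a6 at 167 ± 15.8 RPKM, while Slc48a1 stood at place 15. Under IFN-β Slc6a6 was first at 157 ± 11.6 RPKM and Slc7a8 second at 129 ± 4.66 RPKM.

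**Figure D1:**
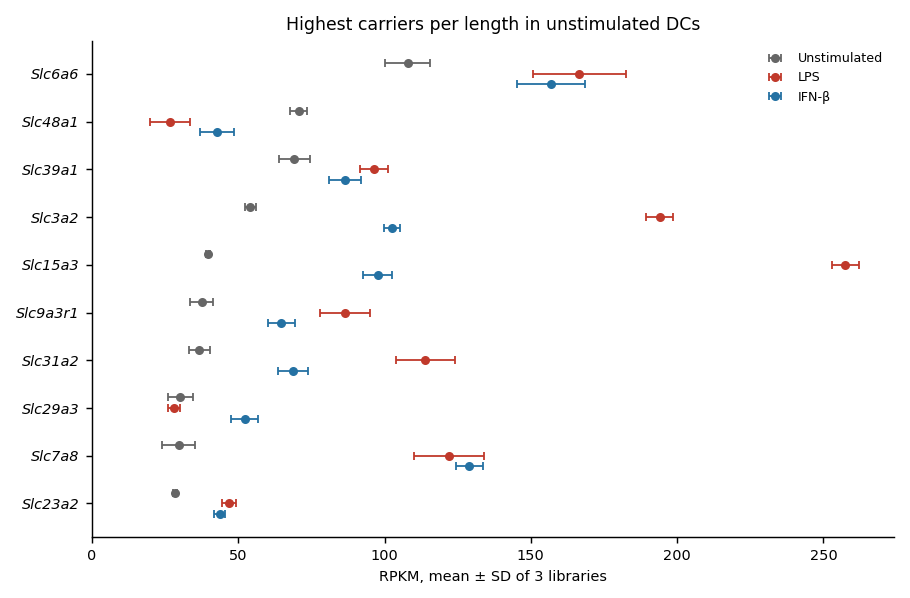
Length-scaled level (RPKM, horizontal axis) of the 10 carrier genes highest in unstimulated DCs, as mean ± SD of 3 libraries per condition. Slc15a3 and Slc3a2 are far to the right under LPS, Slc48a1 is lower under LPS and IFN-β than in unstimulated DCs, and Slc7a8 is at about the same level under both.

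After LPS, 44 of the 176 members were called higher and 91 (51.7%) lower, 135 in all (76.7%). Over all 16260 genes tested, 32.8% were called higher, 35.4% lower and 68.2% in either direction. The median log2 fold change of the members was -0.40, beside -0.04 for all genes tested. Of the members called, 20 rose and 46 fell by over 2-fold, 37.5% of the members where 33.4% of all genes were called with such a change. The fold changes ran from -4.72 (Slc16a14) to 9.53 (Slc1a2). TMM factors were 0.783 to 0.841 in LPS libraries and 1.18 to 1.26 in unstimulated ones, so the scaling bears on the split. With library sizes alone, which moved the median of all genes by -0.58 under LPS, by -0.31 under IFN-β and by 0.27 in the difference between them, 22 members were called higher and 125 lower under LPS. Relative to the median of all genes, the median of the members was -0.35 with either scaling.

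By substrate class, the members called lower outnumbered those called higher under LPS among vitamins (1 higher and 6 lower of 7, median -1.48), monocarboxylates and di- or tricarboxylates (0 and 7 of 9, median -1.42), sugars (0 and 8 of 12, median -0.71), nucleosides and nucleotides (1 and 5 of 7, median -0.77), nucleotide sugars (4 and 13 of 20, median -0.41), chloride, sulfate and phosphate (2 and 7 of 12, median -0.43) and organic anions (2 and 4 of 7, median -0.45). Lipid carriers had 1 higher and 3 lower of 4. Amino acid carriers, the largest class, had 9 higher and 17 lower of 28, with a median of -0.59. Zinc, copper and heme carriers had 7 higher and 6 lower of 19 (median -0.02) and bicarbonate and sodium-proton exchangers 5 and 6 of 14 (median -0.29). Choline and organic cation carriers had 4 higher and 2 lower of 10 with a median of 0.09, osmolyte carriers 2 and 2 of 9 with a median of 0.17, and peptide carriers 2 and 2 of 4 with a median of 0.45, and these 3 medians were below 0 with library sizes alone. Carriers of sodium, potassium, calcium and magnesium had 1 higher and 1 lower of 7, and the 3 members in no other class 2 and 0.

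**Figure D2:**
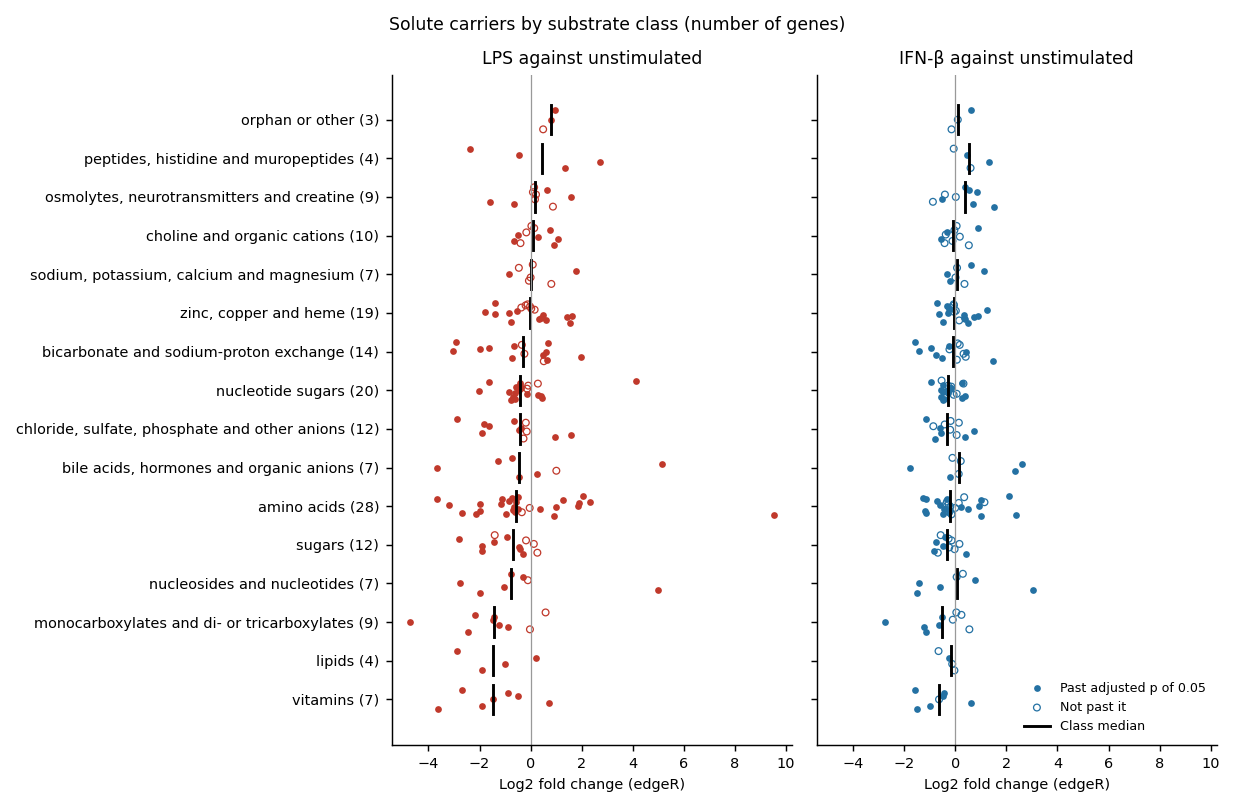
Log2 fold change (horizontal axis) of 172 carriers under LPS (left) and IFN-β (right), 1 point per gene in rows by substrate class with the number of genes in brackets. Filled points passed an adjusted p of 0.05, and black bars are class medians. The 4 genes named after a carrier are left out. Class medians of vitamin, lipid and monocarboxylate carriers lie furthest left under LPS.

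After IFN-β, 39 members were called higher (22.2%) and 63 lower (35.8%), where 23.6% and 23.3% of all genes tested were called. In either direction these were 102 members (58.0%) and 46.9% of all genes. The median log2 fold change was -0.16, beside -0.02 for all genes. The changes were smaller than those under LPS, with 12 members over 2-fold higher and 16 over 2-fold lower (15.9%, beside 12.6% of all genes). With library sizes alone, 22 were called higher and 97 lower. Vitamin carriers had 1 higher and 5 lower of 7, monocarboxylate carriers 0 and 5 of 9, nucleotide sugar carriers 3 and 10 of 20, and sugar carriers 1 and 4 of 12. Osmolyte and neurotransmitter carriers had 5 higher and 1 lower of 9 (1 and 3 with library sizes alone), and amino acid carriers 7 and 11 of 28.

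The difference between the responses, in which the unstimulated libraries drop out, was called higher under IFN-β for 80 members (45.5%) and lower for 35 (19.9%), where 25.8% and 23.3% of all genes were called. In either direction these were 115 members (65.3%) and 49.1% of all genes, and 45 members (25.6%) were called with an over 2-fold difference, beside 17.4% of all genes. The median difference was 0.26, beside 0.02 for all genes. With library sizes alone, 105 were higher and 23 lower. More members were higher than lower under IFN-β in most classes, among them amino acids (13 higher under IFN-β and 5 lower of 28), nucleotide sugars (9 and 2 of 20), bicarbonate and sodium-proton exchangers (8 and 5 of 14), sugars (7 and 1 of 12), chloride, sulfate and phosphate (6 and 3 of 12), monocarboxylates and di- or tricarboxylates (5 and 0 of 9), nucleosides (5 and 1 of 7), organic anions (4 and 1 of 7), vitamins (4 and 0 of 7) and lipids (3 and 1 of 4). The counts were closer for zinc, copper and heme carriers (7 and 6 of 19), peptide carriers (2 and 1 of 4) and carriers of sodium, potassium, calcium and magnesium (2 and 1 of 7). They were 2 and 2 of 10 for choline and organic cation carriers, 2 and 3 of 9 for osmolyte carriers and 0 and 2 for the 3 members in no other class. Both treatments were compared with the same 3 unstimulated libraries, so their values are given side by side in what follows.

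Among amino acid carriers, the glutamate carrier Slc1a2, which clears glutamate from the surroundings of neurons, had the largest rise of any member. It was at 0.127, 0.247 and 0.406 CPM in unstimulated libraries A, B and C (5 to 18 counts), 174, 194 and 226 CPM under LPS and 0.82, 1.35 and 2.02 CPM under IFN-β. The 3 groups did not overlap, and the LPS libraries stood far above all others. The log2 fold change was 9.53 ± 0.31, adjusted p = 3.79e-09, for LPS and 2.36 ± 0.41, adjusted p = 0.000866, for IFN-β. The light chain Slc7a8, a carrier of large neutral amino acids, was at 174, 154 and 118 CPM in the unstimulated libraries, 672, 608 and 552 CPM under LPS and 661, 619 and 657 CPM under IFN-β. It rose about as far under either treatment (2.04 and 2.12), and the difference of 0.08 ± 0.13, adjusted p = 0.636, did not pass the test.

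The shared heavy chain and its light chains did not move together. Slc3a2 was at 189.9, 186 and 198 CPM in the unstimulated libraries, 669, 684 and 702 CPM under LPS and 367, 350.4 and 367 CPM under IFN-β, with no overlap between groups. Its log2 fold change was 1.84 ± 0.07, adjusted p = 5.34e-09, under LPS and 0.92 ± 0.06, adjusted p = 2.71e-06, under IFN-β. The leucine and tryptophan light chain Slc7a5, in contrast, was at 22.5, 26.3 and 27.8 CPM in the unstimulated libraries, 11.6, 12.4 and 11.2 CPM under LPS and 17.3, 21.004 and 22.3 CPM under IFN-β. All LPS libraries lay below all unstimulated ones (-1.12 ± 0.11, adjusted p = 5.98e-06). The fall under IFN-β (-0.34 ± 0.11, adjusted p = 0.025) lost its call without unstimulated B, unstimulated C or IFN-β A (adjusted p 0.0739 to 0.0914). The cationic and neutral light chain Slc7a7 fell under LPS (-0.49 ± 0.14, adjusted p = 0.00787), and its IFN-β value of 0.35 ± 0.13, adjusted p = 0.0531, was called with the replicate letter as a block (0.34, adjusted p = 0.00283). Slc7a6, of the same substrate group, fell under both (-0.72 and -1.25), and its difference of -0.53 ± 0.21, adjusted p = 0.0629, was called with the block (-0.51, adjusted p = 0.00043). Of the 5 tested members of this heteromeric group, 2 rose and 3 fell under LPS, beside 32.8% higher and 35.4% lower of all genes tested. Under IFN-β 2 rose and 2 fell, beside 23.6% and 23.3% of all genes.

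A list of 7 carriers known as targets of ATF4, the transcription factor of amino acid shortage, had 2 higher and 5 lower under LPS, with a median of -0.58, where 32.8% of all genes tested were called higher and 35.4% lower. Under IFN-β 2 were higher and 3 lower, with a median of -0.32, beside 23.6% and 23.3% of all genes. The carriers set aside by name at the start are not on this list. The members that rose were Slc3a2 and the weakly expressed cationic carrier Slc7a3 (0.431, 0.359 and 0.474 CPM unstimulated, 0.991, 0.728 and 1.32 CPM under LPS). The cationic carrier Slc7a1 fell under LPS (-0.84 ± 0.08, adjusted p = 4.2e-06) and under IFN-β (-0.72 ± 0.08, adjusted p = 4.98e-05). The glutamine carrier Slc38a2 fell by like amounts, -0.48 and -0.44. The serine and alanine carrier Slc1a4 and the glycine carrier Slc6a9 fell under LPS (-0.97 and -0.58), and for Slc6a9 the call was lost without any of 5 libraries (unstimulated A or C, LPS A or C, IFN-β B, adjusted p 0.0537 to 0.132).

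The largest difference in favour of IFN-β was that of Slc43a2, a facilitator of branched-chain amino acids and phenylalanine. It was at 269.5, 226 and 257 CPM in the unstimulated libraries, 22.3, 27.8 and 31.9 CPM under LPS and 171, 158 and 171 CPM under IFN-β. The LPS libraries were 9.16-fold lower than the unstimulated ones and the IFN-β libraries 1.505-fold lower, with no overlap. The log2 fold changes were -3.19 ± 0.13, adjusted p = 9.83e-09, and -0.59 ± 0.12, adjusted p = 0.00182, and the difference was 2.61 ± 0.12, adjusted p = 8.68e-08. Exons of the antisense gene Gm45606 cover 9.18% of the exon length of Slc43a2, and as the strand setting of the counting is not given, reads there cannot be told apart. Gm45606 also fell under LPS, from a mean of 10.2 to 0.879 CPM. Slc7a4, an orphan of the cationic family, went from 1.39, 1.46 and 1.71 CPM to 0.142, 0.0291 and 0.184 CPM under LPS and 0.515, 0.823 and 0.718 CPM under IFN-β, without overlap (-3.68 and -1.16). The neutral amino acid carrier Slc6a19, known from kidney and gut, was low throughout (0.127, 0.202 and 0.203 CPM unstimulated). It was at 0.849, 0.495 and 0.707 CPM under LPS, a log2 fold change of 1.90 ± 0.33. Outside the LPS libraries only IFN-β A reached 10 counts. Slc6a19 thus met the count rule through the group where it was highest, and the rule favoured its rise.

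**Figure D3:**
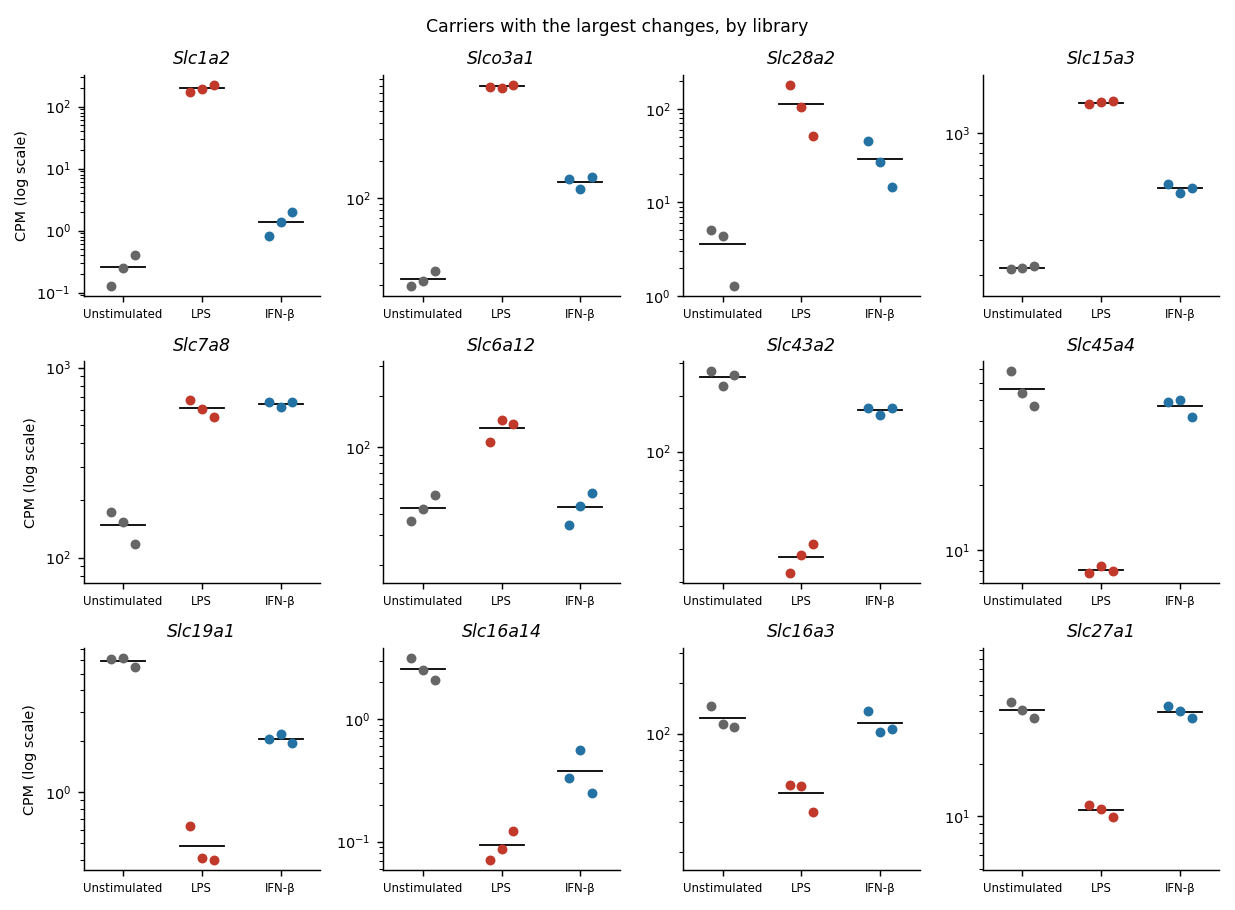
CPM (vertical axes, log scale, each panel with its own range) of 12 carriers in the 9 libraries, with libraries A to C from left to right in each group and a line at the group mean. The upper row shows carriers that rose under LPS and IFN-β, and the last 6 panels carriers that were lowest under LPS.

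The 250 bases before the transcription start were searched for 4 motifs in the RefSeq promoter table of build GRCm38.p6, on both strands. Of the 176 members, 133 matched a window by symbol. The consensus of NF-kB, a transcription factor family downstream of TLR4, was found in 15 of them (11.3%) and in 8.23% of 27025 genes. Of these 15 members, 3 were called higher and 8 lower under LPS, beside 36 higher and 65 lower of the 133. The core of the interferon-stimulated response element was found in 1 member (Slc37a1, 0.752%) and in 3.46% of genes. The ATF4 core TGATGNAA was found in 7 members (5.26%, against 3.91%), and TCACGTGA, the E-box type of lysosomal genes, in 2 (1.504%, against 0.907%). The windows are shown for a carrier with the NF-kB consensus that rose under LPS, the betaine and GABA carrier Slc6a12 (chr6:121342324-121342573, plus strand, with the match 133 to 124 bases before the start), and for Slc43a2, which holds the consensus and fell (chr11:75531444-75531693, plus strand, match 226 to 217 bases before the start). Capitals mark the matches, and each is a match of letters only.
Slc6a12: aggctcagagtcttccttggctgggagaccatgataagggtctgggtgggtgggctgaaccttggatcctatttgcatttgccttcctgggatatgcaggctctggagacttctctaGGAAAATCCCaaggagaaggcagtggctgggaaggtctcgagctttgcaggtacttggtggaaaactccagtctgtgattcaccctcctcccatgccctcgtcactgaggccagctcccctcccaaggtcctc
Slc43a2: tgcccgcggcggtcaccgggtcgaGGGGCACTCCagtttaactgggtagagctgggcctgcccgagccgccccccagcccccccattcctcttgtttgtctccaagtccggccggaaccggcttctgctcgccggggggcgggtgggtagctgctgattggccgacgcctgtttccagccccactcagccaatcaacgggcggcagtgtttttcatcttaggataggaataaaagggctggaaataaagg

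Among peptide carriers, Slc15a3, which exports histidine and bacterial muramyl dipeptide from lysosomes, was at 214, 217 and 222 CPM in the unstimulated libraries, 1386, 1420.2 and 1436 CPM under LPS and 562, 508 and 539 CPM under IFN-β. The 3 groups were widely separated, with a spread within groups far smaller than the steps between them. It was 6.497-fold higher under LPS (adjusted p = 1.35e-09) and 2.46-fold higher under IFN-β (1.30 ± 0.07, adjusted p = 9.37e-07), with a difference of -1.40 ± 0.07, adjusted p = 1.32e-07. Its antisense neighbour Tmem132a covers 28.1% of its exon length and stood at 5.85, 5.04 and 3.79 CPM on average in unstimulated, LPS and IFN-β libraries. Slc15a4, its endosomal relative, which is required for the response of DCs to nucleic acids through TLR7 and TLR9, went the other way under LPS. It was at 59.3, 57.9 and 48.4 CPM in the unstimulated libraries, 43.5, 40.99 and 35.6 CPM under LPS and 82.8, 74.4 and 72.7 CPM under IFN-β, and no library of a group overlapped another group. The log2 fold change was -0.46 ± 0.10, adjusted p = 0.00166, under LPS and 0.47 ± 0.10, adjusted p = 0.00264, under IFN-β, and the rise was 0.17 and not called with library sizes alone. Slc46a3, a lysosomal carrier of related small molecules, was at 4.61, 4.36 and 2.504 CPM unstimulated, 0.778, 0.874 and 0.553 CPM under LPS and 4.71, 3.11 and 3.12 CPM under IFN-β. Only the LPS libraries stood apart (-2.37 ± 0.30, adjusted p = 3.98e-05, against -0.06 ± 0.25, adjusted p = 0.859, for IFN-β).

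Together with these, a list of 12 carriers of lysosomes and endosomes had 1 member higher and 9 lower under LPS, with a median of -0.62, beside 32.8% higher and 35.4% lower of all genes tested. Under IFN-β, 5 were higher and 5 lower, with a median of -0.03, beside 23.6% and 23.3% of all genes. In the direct comparison 10 of the 12 were higher under IFN-β, with a median of 0.80, and only Slc15a3 was lower, beside 25.8% and 23.3% of all genes. The list did not hold Slc31a2 and Slc30a4, described below, which are also found on endosomes and lysosomes. Both rose under LPS, from 36.7 to 114 and from 7.01 to 20.4 RPKM, and stood at 68.7 and 9.93 RPKM under IFN-β. The counts thus hold for the listed carriers only. The proton-coupled amino acid carrier Slc36a1 was at 128, 122 and 108 CPM in the unstimulated libraries, 23.1, 27.7 and 30.01 CPM under LPS and 82.3, 90.4 and 82.6 CPM under IFN-β, a fall of 4.42-fold under LPS and 1.401-fold under IFN-β. The late endosomal nucleoside carrier Slc29a3 was at 199, 181 and 149 CPM in the unstimulated libraries, 177, 161 and 153 CPM under LPS and 335, 296 and 284 CPM under IFN-β. Its LPS and unstimulated libraries overlapped (-0.11 ± 0.11, adjusted p = 0.405), and the IFN-β libraries lay above both (0.79 ± 0.11, adjusted p = 0.00023). Slc38a9, the arginine sensor of mTORC1 on lysosomes, fell from 39.2, 37.8 and 36.2 to 23.2, 23.5 and 26.1 CPM under LPS (-0.64 ± 0.07, adjusted p = 1.49e-05). Its IFN-β level of 46.1, 43.6 and 41.7 CPM gave 0.22 ± 0.07, adjusted p = 0.027, a call that was lost without unstimulated B or C or IFN-β A or B (adjusted p 0.0615 to 0.113) and turned to -0.0901, uncalled, with library sizes alone.

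The endosomal sodium-proton exchanger Slc9a9 fell to 0.46, 0.612 and 0.369 CPM under LPS and 1.26, 1.09 and 1.35 CPM under IFN-β from 3.78, 3.35 and 3.99 CPM, with no overlap (-2.93 and -1.58). The amino acid carrier Slc36a4 fell under LPS (-0.60) and less under IFN-β (-0.23), with a difference of 0.37 ± 0.06, adjusted p = 0.000399. The lysosomal glutamine carrier Slc38a7 passed no test, at -0.04 and -0.01 with SEs of 0.0793 and 0.079.

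**Figure D4:**
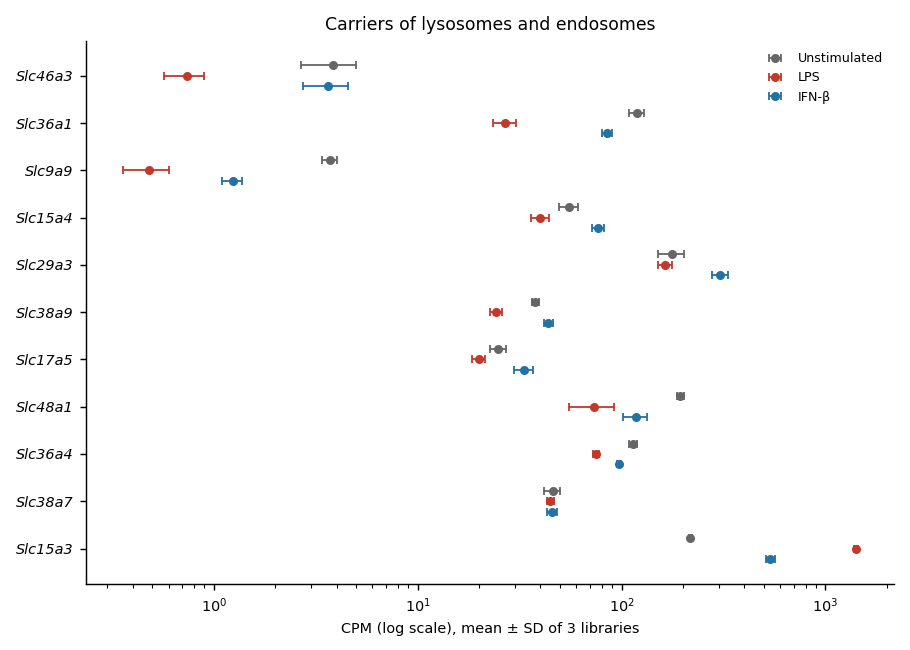
CPM (horizontal axis, log scale) of 11 carriers of lysosomes and endosomes, as mean ± SD of 3 libraries per condition, ordered by the difference between IFN-β and LPS with the largest at the top. Slc15a3, at the bottom, is the only carrier shown that was called lower under IFN-β than under LPS.

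Of the organic anion carriers, Slco3a1, which moves prostaglandins and thyroid hormone, was at 19.6, 21.6 and 26.3 CPM in the unstimulated libraries, 785, 768 and 817 CPM under LPS and 142, 119 and 147 CPM under IFN-β. This was 35.1-fold higher under LPS and 6.04-fold higher under IFN-β (5.13 ± 0.13, adjusted p = 1.06e-09, and 2.59 ± 0.12, adjusted p = 4.38e-07), with wide gaps between all groups. Slco2b1, a carrier of steroid sulfates, was at 4.16, 1.64 and 1.24 CPM in unstimulated libraries, among which A stood apart, 0.248, 0.117 and 0.184 CPM under LPS and 1.22, 0.345 and 0.442 CPM under IFN-β. It fell under LPS (-3.67 ± 0.67, adjusted p = 0.000562). The IFN-β value (-1.77 ± 0.53, adjusted p = 0.0179) did not overlap the unstimulated ones but lost its call without unstimulated A or IFN-β B or C (adjusted p 0.064 to 0.0759), and the difference (1.91 ± 0.76, adjusted p = 0.0584) was called with the replicate letter as a block (1.80, adjusted p = 0.000693).

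Among nucleoside carriers, Slc28a2, which concentrates purine nucleosides with sodium, was at 5.04, 4.402 and 1.26 CPM in the unstimulated libraries, 182, 106 and 51.1 CPM under LPS and 44.7, 26.9 and 14.7 CPM under IFN-β. Every LPS library was above every unstimulated one and the lowest IFN-β library above the highest unstimulated one, but LPS C and IFN-β A lay close together. In each group library A was the highest and C the lowest. The log2 fold change was 4.99 ± 0.62, adjusted p = 3.29e-05, under LPS and 3.02 ± 0.59, adjusted p = 0.00181, under IFN-β. Its close copy Slc28a2b had 7 counts or fewer in any library, and how reads shared by the pair were split is not known. The equilibrative carriers of the cell surface, Slc29a1 and the low Slc29a2, fell under LPS (-1.04 and -2.77) and IFN-β (-0.62 and -1.42). Slc17a9, which fills vesicles with ATP, fell from 5.27, 4.45 and 7.02 CPM to 1.17, 1.14 and 1.87 CPM under LPS and 1.55, 2.602 and 1.795 CPM under IFN-β, and the LPS and IFN-β libraries overlapped (0.50 ± 0.28, adjusted p = 0.165, for the difference).

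No carrier of monocarboxylates or of di- and tricarboxylates rose under either treatment by the test, but Slc13a3, a carrier of dicarboxylates, was called higher under IFN-β with the replicate letter as a block (0.55 ± 0.23, adjusted p = 0.0738, without and 0.54, adjusted p = 0.0453, with it). The lactate exporter of glycolytic cells, Slc16a3, was at 145, 114 and 110.1 CPM in the unstimulated libraries, 49.9, 48.9 and 34.3 CPM under LPS and 137, 102 and 106 CPM under IFN-β. Its LPS libraries were 2.77-fold lower (-1.47 ± 0.17, adjusted p = 1.63e-05), whereas the IFN-β libraries overlapped the unstimulated ones (-0.10 ± 0.16, adjusted p = 0.648). Slc16a1, which carries lactate and pyruvate in either direction, was at 19.6, 20.1 and 20.1 CPM in the unstimulated libraries, 15.3, 8.42 and 9.06 CPM under LPS and 9.44, 8.18 and 7.73 CPM under IFN-β. LPS A was higher than the other two LPS libraries. Slc16a1 fell under LPS (-0.88 ± 0.19, adjusted p = 0.00166) and under IFN-β (-1.24 ± 0.19, adjusted p = 0.000386), and the difference of -0.36 ± 0.19, adjusted p = 0.144, did not pass. The high-affinity carrier Slc16a7 fell under LPS alone by the test (-2.18 ± 0.25, adjusted p = 1.97e-05, against 0.24 ± 0.22, adjusted p = 0.397, under IFN-β), and its difference was 2.42 ± 0.25, adjusted p = 2.16e-05. Slc16a14, an orphan of the family, had the largest fall of any member, from 3.14, 2.52 and 2.08 CPM to 0.0708, 0.0874 and 0.123 CPM under LPS and 0.328, 0.558 and 0.249 CPM under IFN-β (-4.72 ± 0.37, adjusted p = 9.37e-07, and -2.76 ± 0.28, adjusted p = 2.99e-05). Its LPS libraries had 2, 3 and 4 counts. As Slc16a14 met the count rule only with the unstimulated libraries, where it was highest, the rule favoured a fall. Slc16a8 was under the filter. The partner of these carriers, basigin (Bsg), passed no test (-0.02 under LPS and 0.07 under IFN-β), while the related Emb, a partner of Slc16a7, fell under LPS (-0.77 ± 0.16, adjusted p = 0.00116).

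Slc27a1, which takes up long-chain fatty acids and joins them to CoA, was at 45.5, 40.6 and 36.4 CPM in the unstimulated libraries, 11.6, 11.01 and 9.95 CPM under LPS and 42.9, 39.99 and 36.6 CPM under IFN-β. It was 3.76-fold lower under LPS (-1.91 ± 0.10, adjusted p = 5.97e-08), and the IFN-β libraries overlapped the unstimulated ones (-0.04 ± 0.10, adjusted p = 0.791). Slc27a3 and the low Slc27a6 fell under LPS as well (-1.01 and -2.90), and neither passed under IFN-β (-0.12 and -0.66). Slc27a6 met the count rule only with the unstimulated libraries, where it was highest, so the rule favoured its fall. Among sugar carriers, Slc45a4, of a family of proton-coupled sugar carriers, was at 67.9, 54.1 and 47.1 CPM in the unstimulated libraries, 7.78, 8.42 and 7.93 CPM under LPS and 49.02, 50.2 and 41.9 CPM under IFN-β. Only the LPS libraries stood apart (-2.81 ± 0.14, adjusted p = 3.1e-08). Its IFN-β value of -0.26 ± 0.12, adjusted p = 0.103, was called with the replicate letter as a block (-0.25, adjusted p = 0.0135). The intracellular glucose carrier Slc2a8 fell from 6.31, 5.48 and 5.099 CPM to 1.34, 1.49 and 1.72 CPM under LPS and 3.42, 3.11 and 2.87 CPM under IFN-β, without overlap (-1.89 and -0.84). The sugar phosphate exchangers Slc37a2 and Slc37a4, the latter of which takes glucose 6-phosphate into the endoplasmic reticulum, fell under LPS (-1.89 and -1.42) and IFN-β (-0.49 and -0.74).

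Vitamin carriers fell under LPS, with the exception of Slc23a2. The folate carrier Slc19a1, which also takes up cyclic dinucleotides, was at 6.08, 6.18 and 5.51 CPM in the unstimulated libraries, 0.637, 0.408 and 0.399 CPM under LPS and 2.06, 2.204 and 1.96 CPM under IFN-β. It was 12.4-fold lower under LPS and 2.85-fold lower under IFN-β, with no overlap (-3.63 ± 0.18, adjusted p = 4.31e-08, and -1.51 ± 0.15, adjusted p = 2.31e-05). The biotin and pantothenate carrier Slc5a6 went from 7.93, 7.34 and 7.92 CPM to 1.097, 1.46 and 1.04 CPM under LPS and 2.34, 2.89 and 2.57 CPM under IFN-β (-2.68 ± 0.16, adjusted p = 1.01e-07, and -1.57 ± 0.14, adjusted p = 1.22e-05). The thiamine carrier Slc19a2 (-1.89 and -0.99) and the riboflavin carrier Slc52a2 (-0.48 and -0.46) fell under both. In contrast, the ascorbate carrier Slc23a2 was at 223, 231 and 219.9 CPM in the unstimulated libraries, 394, 356 and 367 CPM under LPS and 365, 338 and 340.5 CPM under IFN-β. It rose under both (0.73 ± 0.07, adjusted p = 3.33e-06, and 0.63 ± 0.07, adjusted p = 3.91e-05), and with library sizes alone the LPS value was 0.14 and not called.

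Carriers of inorganic ions moved in both directions. The potassium-chloride cotransporter Slc12a7 fell under LPS (-1.90 ± 0.11, adjusted p = 1.08e-07) and IFN-β (-0.57 ± 0.10, adjusted p = 0.0012). Slc12a9 rose under IFN-β (0.75 ± 0.11, adjusted p = 0.000282), where its LPS value was -0.15 ± 0.11, adjusted p = 0.242. The sodium-potassium-chloride cotransporter Slc12a2 fell under IFN-β (-0.81 ± 0.14, adjusted p = 0.000739), and its LPS value of -0.28 ± 0.14, adjusted p = 0.0905, was called with the block (-0.28, adjusted p = 0.0439).

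The sodium-calcium exchanger Slc8a1 was at 66.2, 70.2 and 81.02 CPM in the unstimulated libraries, 251, 235 and 255 CPM under LPS and 161, 149 and 165 CPM under IFN-β, without overlap (1.77 ± 0.08, adjusted p = 2.99e-08, and 1.13 ± 0.08, adjusted p = 4.01e-06). The magnesium carrier Slc41a3 fell under both (-0.84 and -0.34). Among exchangers of acid and base, the Golgi sodium-proton exchanger Slc9a8 rose under LPS (0.67 ± 0.07, adjusted p = 8.56e-06, 0.0902 and not called with library sizes alone), and its IFN-β value was 0.09 (-0.21 with library sizes alone). Slc4a11, a proton and water channel of the bicarbonate family, rose under IFN-β from 2.48, 1.797 and 2.08 to 7.31, 4.81 and 5.61 CPM (1.48 ± 0.24, adjusted p = 0.000551). Its LPS value of 0.52 ± 0.25, adjusted p = 0.0878, was called with the block (0.50, adjusted p = 0.00931).

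The taurine carrier Slc6a6, an osmolyte carrier and the highest member per length in unstimulated DCs, was at 986, 888 and 864 CPM in the unstimulated libraries, 1559, 1300.2 and 1369 CPM under LPS and 1392, 1214 and 1373 CPM under IFN-β. Both treated groups lay above the unstimulated one and overlapped each other (0.63 ± 0.10, adjusted p = 0.000206, and 0.54 ± 0.10, adjusted p = 0.00128), and the LPS value was 0.0436 and not called with library sizes alone. The betaine and GABA carrier Slc6a12, shown above with its promoter, was at 36.2, 42.6 and 52.1 CPM in the unstimulated libraries, 106, 145 and 136 CPM under LPS and 34.5, 44.8 and 53.5 CPM under IFN-β. It was 2.96-fold higher under LPS (1.57 ± 0.18, adjusted p = 1.75e-05), and the IFN-β libraries overlapped the unstimulated ones (0.02 ± 0.18, adjusted p = 0.941). The inositol carrier Slc5a3 fell under IFN-β (-0.51 ± 0.11, adjusted p = 0.00321). Its LPS value was 0.17 ± 0.11, adjusted p = 0.183, and turned to -0.41 with library sizes alone. The choline carrier Slc44a2 rose under IFN-β from 37.7, 32.3 and 32.3 to 70.6, 58.8 and 59.6 CPM (0.89 ± 0.11, adjusted p = 7.78e-05). At 42.4, 36.5 and 33.9 CPM under LPS it passed with the block and not without it (0.14 ± 0.11, adjusted p = 0.257, without and 0.14, adjusted p = 0.03, with it), and the LPS value turned to -0.44 with library sizes alone.

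Copper carriers rose. Slc31a2, which is found on endosomes and lysosomes, was at 82.9, 72.5 and 68.8 CPM in the unstimulated libraries, 252, 232 and 211 CPM under LPS and 151, 130.3 and 138 CPM under IFN-β, without overlap (1.63 ± 0.10, adjusted p = 1.06e-07, and 0.90 ± 0.09, adjusted p = 3.25e-05). Slc31a1, the copper importer of the cell surface, rose likewise (1.42 and 0.73). Slc48a1, which returns heme from lysosomes after red cells have been digested, fell instead. It was at 186, 194 and 203 CPM in the unstimulated libraries, 53.2, 78.04 and 89.6 CPM under LPS and 99.8, 124 and 129 CPM under IFN-β, with all treated libraries below all unstimulated ones (-1.40 ± 0.17, adjusted p = 2.19e-05, and -0.73 ± 0.16, adjusted p = 0.00404). Among zinc carriers, the importer Slc39a2 rose under IFN-β (20.3, 22.2 and 14.6 to 47.6, 46.8 and 40.3 CPM, 1.24 ± 0.15, adjusted p = 7.73e-05), with 23.6, 21.4 and 18.6 CPM under LPS, where the value of 0.16 turned to -0.43 with library sizes alone. The importer Slc39a1 had log2 fold changes of 0.48 with LPS and 0.32 with IFN-β, both called, the former -0.10 with library sizes alone, and the difference of -0.16 ± 0.08, adjusted p = 0.123, was called with the block (-0.16, adjusted p = 0.0368). The endosomal and lysosomal zinc carrier Slc30a4 rose under LPS from 35.4, 37.2 and 42.7 to 121, 99.4 and 115 CPM and under IFN-β to 52.4, 52.4 and 58.5 CPM (1.54 and 0.50). Slc39a10 and Slc39a11, importers of the same family as Slc39a1, fell under LPS (-1.39 and -0.87) and IFN-β (-0.66 and -0.31).

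Nucleotide sugar carriers supply the Golgi and the endoplasmic reticulum with the building blocks of glycans. The 20 members of this class had a median log2 fold change of -0.41 under LPS and -0.29 under IFN-β. They include orphans of the family, so the median is not that of nucleotide sugar carriers alone. Slc35c2, a relative of the GDP-fucose carrier, was at 34.1, 34.6 and 35.6 CPM in the unstimulated libraries, 8.35, 8.62 and 8.39 CPM under LPS and 24.7, 25.996 and 29.3 CPM under IFN-β. The groups did not overlap (-2.04 ± 0.08, adjusted p = 9.17e-09, and -0.38 ± 0.07, adjusted p = 0.00171). Slc35g1 fell under both (-1.63 and -0.93). The UDP-N-acetylglucosamine carrier Slc35a3 rose under LPS (0.43 ± 0.08, adjusted p = 0.000413), but the value was -0.16 and not called with library sizes alone. Slc35g2 had 0, 4 and 1 counts in unstimulated, 27, 21 and 22 counts in LPS and 1 count in each IFN-β library, and as it met the count rule through the LPS libraries alone, its difference was fixed by the rule. Outside the carriers proper, the scaffold Slc9a3r1 rose (1.21 and 0.79) and its relative Slc9a3r2 fell (-3.08 and -1.67) under both treatments.

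For 8 members LPS and IFN-β were called in opposite directions, as they were for 1.76% of all genes tested. In Slc15a4, Slc17a5, Slc18a1, Slc35f6 and Slc38a9 the level fell under LPS and rose under IFN-β, and in Slc4a7, Slc22a21 and Slc27a4 it rose under LPS and fell under IFN-β. The carnitine carrier Slc22a21 was at 2.74, 3.41 and 3.02 CPM in the unstimulated libraries, 6.72, 6.06 and 6.76 CPM under LPS and 2.23, 2.098 and 1.91 CPM under IFN-β, with log2 fold changes of 1.09 ± 0.13, adjusted p = 2.14e-05, and -0.56 ± 0.13, adjusted p = 0.00617. It was the only member of the 8 that kept both calls with library sizes alone. The sodium-bicarbonate cotransporter Slc4a7, which loads base into cells, was at 64.7, 66.5 and 82.2 CPM in the unstimulated libraries, 109, 90.05 and 104 CPM under LPS and 41.5, 41.1 and 45.4 CPM under IFN-β. No group overlapped another, and the changes were 0.50 ± 0.10, adjusted p = 0.0012, and -0.74 ± 0.10, adjusted p = 0.000233, the former -0.0838 with library sizes alone. The sialic acid carrier Slc17a5 fell by 0.32 under LPS and rose by 0.42 under IFN-β, and the LPS call was lost without unstimulated A or LPS C (adjusted p 0.0545 to 0.0632). The monoamine carrier Slc18a1 gave -0.66 and 0.69, and lost a call without unstimulated B, LPS C (adjusted p 0.0602 to 0.0642) or IFN-β B (adjusted p = 0.0513). Slc35f6 and the fatty acid carrier Slc27a4 had the smallest differences between the responses of the 8. Slc35f6 gave -0.43 and 0.25, the latter lost without unstimulated B or C or IFN-β A or B (adjusted p 0.0572 to 0.101), and -0.0552 with library sizes alone. Slc27a4 gave 0.20 and -0.25, the former lost without unstimulated B or C or LPS B (adjusted p 0.0793 to 0.106) and turned to -0.38 with library sizes alone. The count of 8 was 12 with the replicate letter as a block, 4 without unstimulated B and 5 without unstimulated C or IFN-β B.

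**Figure D5:**
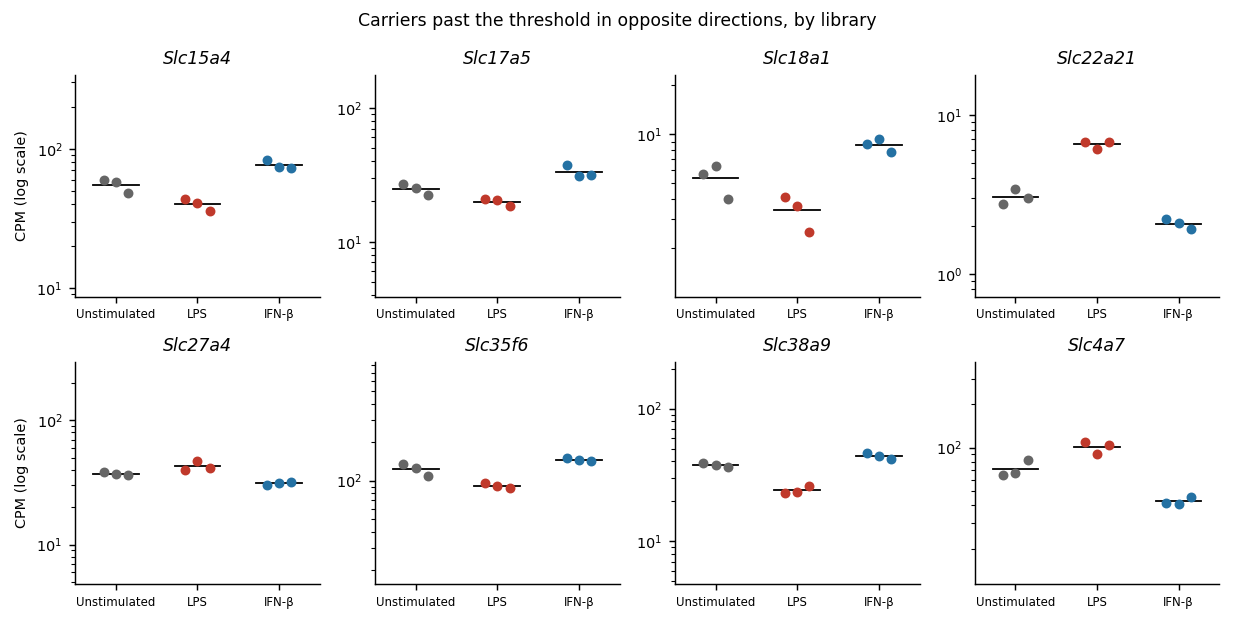
CPM (vertical axes, log scale) of the 8 carriers that LPS and IFN-β changed in opposite directions by the test, in the 9 libraries, with libraries A to C from left to right in each group and a line at the group mean. The LPS and IFN-β libraries lie apart in all 8 panels, and the unstimulated libraries lie between them except in Slc18a1, where unstimulated C is among the LPS libraries.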

How the data were processed

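The authors deposited raw counts per gene for 9 libraries made from 500 ng of total RNA with ribosomal RNA removed. The submitters' processing notes name Trim Galore 0.6.0, STAR 2.7.8a and build GRCm38 (mm10), while the study's methods give another STAR version, and the annotation was GENCODE M20. The strand setting is not given in the sources used here, and GENCODE M21 exons of other genes overlap over 10% of the exon length in antisense for 14 members and on the same strand for 4. From these counts, R 4.3.3 with edgeR 4.0.16 and limma 3.58.1 gave TMM factors, filterByExpr genes and quasi-likelihood tests in 1 fit with 1 term per condition, Benjamini-Hochberg adjusted over all genes tested. The difference between responses is IFN-β minus LPS. The SE is the absolute log2 fold change over the square root of F. RPKM used the summed exon length of GENCODE M21. Tested on simulated counts of LPS against unstimulated, the fit recovered 64.3% of genes changed by 1 and 91.8% of those changed by 2 on the log2 scale (98 genes each, of 15931 tested), and called 5 unchanged genes. The simulation changed few genes, about as many up as down, and held no shift in composition like that of the real libraries. It therefore does not test the scaling.

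The members and all gene lists were chosen with earlier results of these data known. The genes named are, for each substrate class, those with the largest called rise and fall under each treatment at a mean of at least 1 CPM, the 10 highest per length in unstimulated DCs, those called in opposite directions, the members of the lists, and the 5 with the largest difference in each direction. Slc17a8, Slc22a18 and Slc49a4 met this rule as well and are not described above, but count among the 68 named genes below. Slc13a3, Slc19a2, Slc27a3, Slc27a6, Slc29a1, Slc29a2, Slc30a4, Slc31a1, Slc37a2, Slc37a4, Slc39a10, Slc39a11 and Slc52a2 were named after their values were seen. Values of 2 members are not reported here. Substrate classes were written from textbook knowledge, and the nucleotide sugar and monocarboxylate classes include orphans of their families. The replicate letters appear to pair the libraries: over all genes tested, the deviations of libraries with the same letter from their group means correlated at 0.115 to 0.470 in 9 pairs, against -0.400 to 0.028 for different letters. No 2 libraries agreed within sampling noise. Alternatives were other scalings (RLE, upper quartile, library size only), DESeq2 1.42.0, other filters, a replicate block and leaving out each library.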

Additional observations from a re-analysis of the deposited data

Results flagged for a closer look

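These 8 carriers were called in opposite directions by LPS and IFN-β, and the difference between the responses was tested directly by edgeR's quasi-likelihood test. The 8 were chosen by calls of opposite sign in the same libraries. A difference between the responses nearly follows from that choice, so the p-values below add no support and the values give its size. The IFN-β response was above the LPS response in 5 of the 8. The difference was 1.35 ± 0.21, adjusted p = 0.000326, for the monoamine carrier Slc18a1. For Slc15a4 it was 0.94 ± 0.10, adjusted p = 2.43e-05. In Slc38a9 it came to 0.85 ± 0.07, adjusted p = 4.36e-06. Slc17a5 had a difference of 0.74 ± 0.10, adjusted p = 0.000139, and Slc35f6 of 0.68 ± 0.08, adjusted p = 6.17e-05. The IFN-β response was below the LPS response in 3. These were Slc22a21 with -1.65 ± 0.13, adjusted p = 3.3e-06, Slc4a7 with -1.24 ± 0.10, adjusted p = 4.45e-06, and Slc27a4 with -0.46 ± 0.07, adjusted p = 0.000359, which was -0.19 and not called with library sizes alone. In all 8 the LPS and IFN-β libraries did not overlap, which also nearly follows from the choice. The share of all genes without such overlap was not counted. By the test, 49.1% of all genes were called in this comparison.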

How the results depend on the processing

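No choice changed the counts of members called higher or lower by over 1.5 times except scaling by library size only, which gave 22 higher under LPS, 22 higher and 97 lower under IFN-β, and 23 lower in the difference between the responses. With single libraries left out, 42 to 46 members were higher and 83 to 91 lower under LPS, 35 to 40 higher and 54 to 68 lower under IFN-β, and 68 to 83 higher and 30 to 36 lower in the difference. With the replicate block, 49 were higher and 98 lower under LPS, 49 and 75 under IFN-β, and 87 and 38 in the difference, and every member called without it kept its call and direction. Among the 152 members with a mean of at least 1 CPM, a limit chosen after seeing the data, 39 were higher and 81 lower under LPS, 37 and 58 under IFN-β, and 72 and 31 in the difference. Of 3264 values for 68 named genes under 16 alternatives, 3134 kept their side of the threshold, 67 lost a call and 50 gained one. Values uncalled in both the main fit and the alternative count among the 3134 even where their direction changed. The other 13 turned with a call in either fit, all 13 with library size only. These were, under LPS, Slc27a4 (-0.38), Slc35a3 (-0.16), Slc35a5 (-0.20), Slc39a1 (-0.10), Slc39a2 (-0.43), Slc44a2 (-0.44), Slc4a7 (-0.084) and Slc5a3 (-0.41), under IFN-β, Slc35a3 (-0.046), Slc35f6 (-0.055), Slc38a9 (-0.090) and Slc9a8 (-0.21), and in the difference Slc23a2 (0.18). That scaling is built without composition factors, and the LPS factors are the smallest. A call on a member near 10 counts is limited by depth, where 3 counts in a library amount to 0.0674 to 0.106 CPM.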

Other observations

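Genes that work beside the carriers were described from lists of the same kind. Their counts stand beside 32.8% higher and 35.4% lower of all genes tested under LPS, 23.6% and 23.3% under IFN-β, and 25.8% and 23.3% in the direct comparison. Of 7 tested partners of carriers, 4 were higher and 2 lower under LPS, and 3 higher and 1 lower under IFN-β. Compared directly, 3 were higher under IFN-β and 3 lower. Ostm1 and Atp1b1 changed in opposite directions under the treatments. Ostm1, a lysosomal partner of a chloride carrier, gave -0.35 ± 0.07, adjusted p = 0.0008, under LPS and 0.60 ± 0.07, adjusted p = 4.97e-05, under IFN-β. Atp1b1, a beta subunit of the sodium pump that drives sodium-coupled carriers, gave 0.88 ± 0.23, adjusted p = 0.00586, and -0.81 ± 0.25, adjusted p = 0.021. Tasl, the adaptor that binds Slc15a4, rose under LPS (0.42 ± 0.16, adjusted p = 0.0377) and IFN-β (0.95 ± 0.16, adjusted p = 0.000624). Its LPS libraries overlapped the unstimulated ones (7.68, 5.94 and 6.91 against 6.23, 4.27 and 4.85 CPM).

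Among 21 tested genes of amino acid sensing on lysosomes (the Rag, Ragulator, folliculin and sestrin genes and their relatives), 6 were higher and 12 lower under LPS, with a median of -0.32, and 6 higher and 4 lower under IFN-β, with a median of -0.04. In the direct comparison 11 were higher under IFN-β and 1 lower. Of 23 tested carriers of the same folds without a carrier symbol, such as the Mfsd genes, 6 were higher and 13 lower under LPS (median -0.28), and 6 higher and 8 lower under IFN-β (median -0.03). Compared directly, 10 were higher under IFN-β and 7 lower, with a median of 0.05.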
